A study of Mus musculus with 2 samples.

Results

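Arachidonic acid is released from membrane phospholipids and oxidised by cyclooxygenases and lipoxygenases, and 9 genes of this pathway were followed across the cell types of the mouse endometrium. They were the phospholipases Pla2g4a and Pla2g10, the cyclooxygenases Ptgs1 and Ptgs2, the prostaglandin synthases Ptges, Ptgis and Hpgds, the dehydrogenase Hpgd and the lipoxygenase Alox15. The 9 genes were taken by symbol from the 19070 genes of the probe panel. They were chosen by values of the same libraries, in which Pla2g10 had been detected in the control alone and Alox15 had been higher in the epithelium of the other library. The contrast between the libraries is therefore given as a description of these genes.

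Single-cell RNA profiles had been made from endometrium dissected on day 3 of pregnancy, before implantation. Erbb3 f/f females were the controls, and Erbb3 d/d females carried, per the labels, a deletion of the receptor gene Erbb3 in the stroma. There was 1 library per genotype, and both library names give 9 AM. About 25 mg of tissue was fixed for 16 h at 4 °C, dissociated with collagenases at 37 °C for 40 min, passed through a 40 µm strainer and profiled with the Chromium Flex assay, in which probe pairs hybridise to transcripts of fixed cells. The driver of the deletion, the strain and age of the females and the number of females behind each library were not given in the sources used here.

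The f/f library held 5783 cell barcodes and 6819591 UMIs, and the d/d library held 2125 barcodes and 2866862 UMIs. A UMI here tags a ligated probe pair, so a transcript with several probe pairs can give several UMIs. Barcodes with at least 200 detected genes and at most 10% mitochondrial UMIs were kept, which left 5503 f/f cells with a median of 809 UMIs and 1830 d/d cells with a median of 764.5. Cells were assigned to 6 classes from marker genes that do not include the 9. The epithelial class held 2323 f/f and 875 d/d cells, the stromal class 963 and 193, the mesothelial class 247 and 92, the endothelial class 177 and 59, the myeloid class 92 and 39, and the smooth muscle or pericyte class 64 and 23. All 16 epithelial markers were detected in the epithelial class of each library, with summed levels of 3673 and 3530 CPM, which scales UMIs to a common class total, in f/f and d/d. A further 1637 f/f and 549 d/d cells fitted no class clearly and were left out. No complete barcode occurred in both libraries, but 158 barcodes of each shared their first 16 bases.

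With 1 library per genotype there was no replicate to test against, so no p-value was computed, and each difference is a difference between 2 preparations. Levels are in CPM. Values in parentheses after a level or a log2 ratio (d/d over f/f) are exact 95% intervals that cover counting error alone. The number of probes differs between genes, so levels were compared across cells within a gene and never between genes.

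As background, cytosolic phospholipase A2, the product of Pla2g4a, frees arachidonic acid inside the cell, and secreted enzymes such as the product of Pla2g10 cleave phospholipids of the outer membrane face and of the extracellular space. Ptgs1 and Ptgs2 turn arachidonic acid into prostaglandin H2, terminal synthases convert that into prostaglandins E2, D2 or prostacyclin, and Hpgd inactivates prostaglandins. Alox15 oxygenates polyunsaturated fatty acids directly. In the mouse uterus, cytosolic phospholipase A2 and cyclooxygenase products are known for their part in the timing of implantation, with Ptgs1 described in the epithelium before attachment and Ptgs2 around the attaching blastocyst.

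The upstream sequences of Pla2g10, Pla2g4a and Ptgs1, whose levels differed most clearly below f/f in the d/d epithelium, are shown so that their promoters can be compared. They are the 250 bases before the RefSeq start site on build GRCm38.p6, written 5′ to 3′ on the gene's strand, and capitals mark a match to a searched motif. Pla2g10 lies at chr16:13730485-13730734 (minus strand), Pla2g4a at chr1:149961291-149961540 (minus strand) and Ptgs1 at chr2:36230176-36230425 (plus strand). GENCODE places the 5′ end of the longest Pla2g10 transcript farther upstream, so the Pla2g10 window lies inside that gene model.
Pla2g10: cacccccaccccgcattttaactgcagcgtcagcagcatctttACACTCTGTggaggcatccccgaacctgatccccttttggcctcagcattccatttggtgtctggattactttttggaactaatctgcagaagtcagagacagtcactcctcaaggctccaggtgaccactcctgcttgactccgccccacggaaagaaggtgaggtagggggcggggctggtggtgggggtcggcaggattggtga
Pla2g4a: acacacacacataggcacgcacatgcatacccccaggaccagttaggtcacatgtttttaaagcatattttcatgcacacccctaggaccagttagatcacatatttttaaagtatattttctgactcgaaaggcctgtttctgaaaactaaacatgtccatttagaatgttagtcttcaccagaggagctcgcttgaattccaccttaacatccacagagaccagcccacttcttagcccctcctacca
Ptgs1: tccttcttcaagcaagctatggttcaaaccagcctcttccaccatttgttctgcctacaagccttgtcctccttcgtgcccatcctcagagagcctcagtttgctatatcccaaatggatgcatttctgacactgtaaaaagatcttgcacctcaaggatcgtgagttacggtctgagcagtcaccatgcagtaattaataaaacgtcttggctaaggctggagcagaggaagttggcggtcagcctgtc
A script searched both strands of the 300-base windows around the start site (250 before, 50 after) of 7 of the 9 genes, 8 windows in all, for 6 motifs: the core of the progesterone or glucocorticoid receptor element (ACANNNTGT), the full palindromic estrogen receptor element, the AP-1 site (TGANTCA), the cAMP response element (TGACGTCA), the E-box (CACGTG) and the TATA box (TATAAA). The Pla2g10 window held ACACTCTGT, a match to the receptor element core, at positions -207 to -199, counted with the start site as 0. A match to this core was present in 6.846% of 32851 RefSeq promoter windows of the same length. Hpgd also held a match, ACACAATGT, at -93 to -85, and Ptgs2 held an E-box at 16 to 21, a motif found in 7.15% of windows. A TATA box, found in 13.6% of windows, stood at 4 to 9 in Hpgd. The Pla2g4a window not shown held its reverse complement, TTTATA, at -200 to -195. None of the 6 motifs was found in the windows of Ptgs1, Ptges and Hpgds or in the Pla2g4a window shown. These matches are descriptions of letters and not of bound sites.

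**Figure D1:**
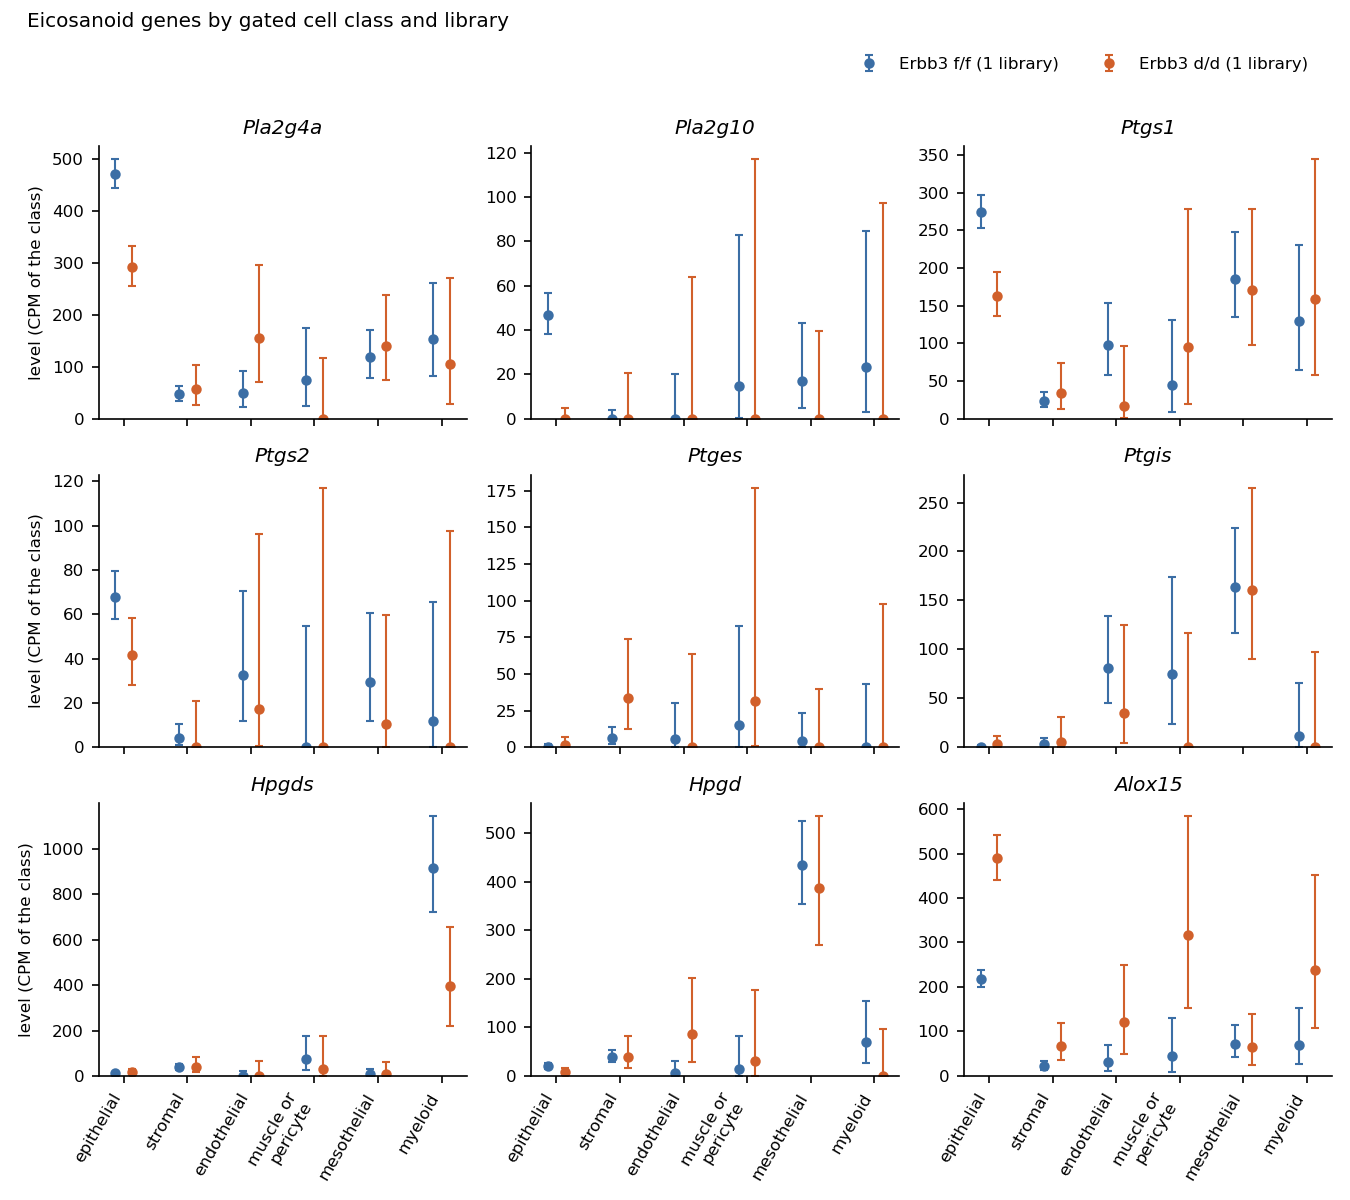
Level of each of the 9 genes (vertical axes, CPM of the class, a different scale in each panel) in 6 marker-gated cell classes (horizontal axis), with 1 library per genotype; bars are exact 95% Poisson intervals of counting error. Pla2g4a, Pla2g10, Ptgs1, Ptgs2 and Alox15 are highest in the f/f epithelium, Hpgd and Ptgis in mesothelial cells and Hpgds in myeloid cells, while d/d points stand lower in the epithelium for the first 4 and higher for Alox15.

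The phospholipases were measured first. Pla2g4a (ENSMUSG00000056220, chromosome 1, 149829618 to 149961290 on GRCm38, minus strand, protein-coding) had its highest level in the epithelium of both libraries. In f/f epithelial cells it had 1087 UMIs, or 471 CPM (443 to 500), and in d/d epithelial cells 225 UMIs, or 291 CPM (254 to 332). The d/d value was lower by a log2 ratio of -0.69 (-0.91 to -0.49), and the intervals of the 2 levels did not overlap. Among the 6843 genes with at least 100 epithelial UMIs over both libraries, 675 had a lower ratio. A UMI of Pla2g4a was present in 31.5% of 2323 f/f epithelial cells and in 20.2% of 875 d/d cells, at median depths of 846 and 768 UMIs. After every cell had been thinned to 500 UMIs the shares were 19.4% (17.8 to 21) and 12.9% (10.8 to 15.4). In stromal cells the unthinned shares were 4.36% and 3.63% at median depths of 761 and 714 UMIs. The part of free RNA from other cells in these shares was not tested.

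Outside the epithelium Pla2g4a lay between 46.8 CPM in the stroma and 153 CPM in myeloid cells of the f/f library. Each of these 5 levels had an interval below that of the epithelium. In the d/d library the levels of endothelial cells (156 CPM, 71.1 to 295) and myeloid cells (106 CPM, 28.8 to 271) were not separated from the epithelial one. The endothelial class held 9 UMIs in each library, which is 48.7 CPM in f/f and a log2 ratio of 1.68 (0.17 to 3.18). This difference was lost in the endothelial Leiden cluster, where 36 and 9 UMIs gave 131 and 152 CPM, a ratio of 0.22 (-1.02 to 1.30). Leiden clusters group the cells by the most variable genes rather than by the markers. The stromal ratio was 0.27 (-0.88 to 1.28) from 45 and 10 UMIs, so a difference in the stroma, the tissue of the labelled deletion, was not detectable at this depth.

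Pla2g10 (ENSMUSG00000022683, chromosome 16, 13715057 to 13730983 on GRCm38, minus strand, protein-coding) was found mostly in the epithelium of the control library. Of its 175 UMIs in filtered f/f cells, 108 were in the epithelial class, which held 2307472 of the 5517795 UMIs of all genes. The f/f epithelial level was 46.8 CPM (38.4 to 56.5), and d/d epithelial cells held 0 UMIs. At the f/f level 36.2 UMIs would have been counted in the d/d class. Taking the count of 0 as at most 3 UMIs, the d/d level was at least 12.1-fold lower, a log2 bound of -3.59. The exact interval of the ratio, which also covers the counting error of f/f, ended at -3.27. The 108 UMIs came from 97 cells, 4.18% of the f/f epithelial class, of which 8 had more than 1 UMI. The 0 of 875 d/d cells allow a share of up to 0.343% of cells with a UMI, which at this depth is no limit on the cells that express the gene.

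Outside the epithelial class Pla2g10 UMIs were few in each class. The stromal and endothelial classes held 0 UMIs in both libraries, and the 0 of 963 f/f stromal cells allow a share of up to 0.312% with a UMI. In f/f the mesothelial class had 4 UMIs, 16.8 CPM (4.58 to 43.1), the myeloid class 2, 23.5 CPM (2.84 to 84.8), and the smooth muscle or pericyte class 1. These counts were too low to separate the 3 classes from the epithelium. The f/f cells of no class had 60 UMIs, 35.9 CPM (27.4 to 46.2), which overlapped the epithelial level. In d/d no cell that passed the filters carried a Pla2g10 UMI. Over all deposited barcodes there were 215 UMIs in f/f against 2 in d/d, a log2 ratio of -5.50 (-8.55 to -3.63), and the 2 d/d UMIs were in barcodes with a high mitochondrial share.

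Levels of the cyclooxygenases were also lower in the d/d epithelium. Ptgs1 (ENSMUSG00000047250, chromosome 2, 36230426 to 36252272 on GRCm38, plus strand, protein-coding), the constitutive cyclooxygenase, had 633 UMIs in f/f epithelial cells and 126 in d/d epithelial cells. The levels were 274 CPM (253 to 297) and 163 CPM (136 to 194), which did not overlap. The log2 ratio was -0.75 (-1.04 to -0.47). The thinned share of epithelial cells with a UMI was 11.7% (10.4 to 13.1) in f/f against 7.56% (5.89 to 9.52) in d/d. Unthinned, 21.8% and 13.3% of epithelial cells carried a UMI, against 2.39% and 2.59% of stromal cells.

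In mesothelial cells, the lining of the uterine surface, Ptgs1 stood at 185 CPM (134 to 248) in f/f and 172 CPM (98 to 279) in d/d. The epithelial interval stood above the mesothelial one in f/f. In d/d the epithelial, mesothelial and myeloid levels (the last 159 CPM, 58.2 to 345) overlapped. Endothelial Ptgs1 gave 18 UMIs in f/f against 1 in d/d, with a ratio whose interval reached 0 (-2.49, -7.87 to 0.17), while the endothelial Leiden cluster had 34 UMIs against 1 (-2.87, -8.22 to -0.30). Stromal levels were 23.9 and 33.8 CPM, from 23 and 6 UMIs.

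Ptgs2 (ENSMUSG00000032487, chromosome 1, 150100031 to 150108227 on GRCm38, plus strand, protein-coding), the inducible cyclooxygenase, was counted less often. It had 157 UMIs in f/f epithelial cells, 68.0 CPM (57.8 to 79.6), and 32 UMIs in d/d epithelial cells, 41.4 CPM (28.3 to 58.5). The intervals of the 2 levels overlapped by a small margin, and the log2 ratio was -0.72 (-1.31 to -0.16). In f/f the epithelial level had an interval above that of the stroma, which had 4 UMIs (4.16 CPM, 1.13 to 10.6). Endothelial and mesothelial cells had 6 and 7 UMIs in f/f and 1 each in d/d.

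Of the synthases, Ptges and Ptgis were nearly missing from the epithelium. Ptges (ENSMUSG00000050737, chromosome 2, 30889471 to 30929863, minus strand), the inducible prostaglandin E synthase, gave 1 UMI in the epithelial class of each library. Its stromal counts were 6 UMIs in each library, 6.24 CPM (2.29 to 13.6) in f/f and 33.8 CPM (12.4 to 73.6) in d/d, a log2 ratio of 2.44 (0.54 to 4.34). That ratio rests on 12 UMIs. Ptgis (ENSMUSG00000017969, chromosome 2, 167191805 to 167240604, minus strand), the prostacyclin synthase, was a mesothelial and vascular gene in f/f. It had 39 mesothelial UMIs, 164 CPM (117 to 224), 15 endothelial UMIs, 81.1 CPM (45.4 to 134), and 5 UMIs in the smooth muscle or pericyte class, 74.5 CPM (24.2 to 174). The intervals of these 3 classes overlapped. The mesothelial level was 161 CPM (90.0 to 265) in d/d, a log2 ratio of -0.03 (-0.99 to 0.86).

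Hpgds (ENSMUSG00000029919, chromosome 6, 65117293 to 65144908, minus strand), the hematopoietic prostaglandin D synthase, was highest in myeloid cells. The f/f myeloid class had 78 UMIs, 915 CPM (724 to 1143), and the d/d class 15 UMIs, 396 CPM (222 to 654). The log2 ratio was -1.21 (-2.11 to -0.40), from 92 and 39 cells. With Leiden clusters in place of the marker gate, which put 250 f/f and 110 d/d cells in the myeloid cluster, it was -0.64 (-1.16 to -0.15). All other classes were at or below 74.5 CPM in both libraries. Mast cell markers, another known source of prostaglandin D, gave 2 UMIs in f/f myeloid cells and 0 in d/d.

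Hpgd (ENSMUSG00000031613, chromosome 8, 56294585 to 56321043, plus strand), which inactivates prostaglandins, was highest in mesothelial cells of both libraries. There it had 103 UMIs in f/f, 433 CPM (354 to 525), and 36 in d/d, 386 CPM (270 to 534), with overlapping intervals and a log2 ratio of -0.17 (-0.76 to 0.39). Every other class was at or below 86.4 CPM, and stromal cells had 39.5 CPM in each library. Epithelial cells had 45 UMIs in f/f, 19.5 CPM (14.2 to 26.1), and 6 in d/d, 7.77 CPM (2.85 to 16.9). The epithelial ratio of -1.33 (-2.85 to -0.09) depended on the gate: it was 0.15 under a looser count gate. Within the f/f epithelium, Hpgd stood at 51.2 CPM (28.0 to 86.0) in cells with a UMI of a gland marker and at 15.2 CPM (10.4 to 21.6) in the rest. The 29 d/d cells with a gland marker held 0 Hpgd UMIs, where 1.47 would be counted at the f/f level, so no difference could be seen there.

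Alox15 (ENSMUSG00000018924, chromosome 11, 70344152 to 70352031, minus strand), the mouse 12/15-lipoxygenase, was higher in the d/d epithelium. It had 503 UMIs in f/f epithelial cells, 218 CPM (199 to 238), and 378 UMIs in the smaller d/d class, 489 CPM (441 to 541). The intervals were far apart, and the log2 ratio was 1.17 (0.97 to 1.36). The share of epithelial cells with a UMI was 13% in f/f against 26.6% in d/d, and after thinning 7.94% (6.87 to 9.11) and 18.9% (16.4 to 21.7). Cells with at least 2 UMIs numbered 116 of 2323 in f/f and 88 of 875 in d/d, and the highest count in a cell was 9 and 8.

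Outside the epithelium f/f Alox15 was at most 71.5 CPM, and most d/d levels stood above those of f/f. Stromal cells had 22 UMIs in f/f, 22.9 CPM (14.3 to 34.6), and 12 in d/d, 67.7 CPM (35 to 118), a log2 ratio of 1.57 (0.42 to 2.64). Ratios in endothelial cells (1.90, 0.10 to 3.75), myeloid cells (1.76, 0.10 to 3.53) and the smooth muscle or pericyte class (2.83, 0.87 to 5.33) lay above 0 as well, from 13 to 15 UMIs each. In the endothelial Leiden cluster 26 and 7 UMIs gave 94.6 and 118 CPM (0.32, -1.13 to 1.56), so the endothelial difference was lost there, and the myeloid Leiden cluster gave 76.0 and 228 CPM (1.59, 0.89 to 2.29). Mesothelial cells were the exception, at 71.5 and 64.3 CPM, but in the mesothelial Leiden cluster led by Msln and Upk1b the levels were 65.5 and 147 CPM, a ratio of 1.17 (0.32 to 2.02). Stromal Alox15 was 10.5% of the epithelial level in f/f against 13.8% in d/d. For the 16 epithelial markers the same percentage ranged from 0.821 to 16.6 in f/f and from 0.00 to 38.7 in d/d, with medians of 5.64 and 7.74. The stromal Alox15 values lay inside these ranges. The median mitochondrial share of UMIs was also higher in d/d, at 1.28% and 3.07% in stromal cells, 2.20% and 4.97% in endothelial, 1.36% and 4.10% in myeloid, 2.28% and 5.60% in smooth muscle or pericyte and 1.28% and 4.71% in mesothelial cells, beside 0.392% and 0.497% in the epithelium. In d/d smooth muscle or pericyte cells, Alox15 had 10 UMIs in 23 cells beside markers of other cell types. The 16 epithelial markers summed to 760 CPM in f/f and 1429 CPM in d/d of that class, and the 12 myeloid markers to 134 and 889 CPM. The 4 eosinophil markers summed to 0 and 159 CPM, the last from 5 UMIs. Endothelial markers stood at 581 and 794 CPM and neutrophil markers at 0 and 95.3 CPM. The 10 smooth muscle or pericyte markers of the class itself summed to 7118.5 CPM in f/f and 4224 CPM in d/d. Among markers of other cell types, epithelial subsets aside, stromal (5317 and 4891 CPM) and mesothelial (581 and 445 CPM) sums were lower in d/d. So were the lymphoid (134 and 127 CPM) and mast cell (29.8 and 0 CPM) sums. The Leiden cluster led by Myh11 and Acta2 held 0 Alox15 UMIs in 82 f/f and 16 d/d cells, which allows up to 37.7 CPM in f/f and 219 CPM in d/d (3 UMIs of each total). The part of free RNA, of RNA quality and of other cell types in these low values was not tested.

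Of the 9 genes, 5 had the 100 epithelial UMIs needed for a counted ratio. Past 2-fold, 1 of the 5 was higher in d/d (Alox15) and 1 was lower (Pla2g10). Over all 6843 counted genes, 5.44% were higher and 4.4% were lower by that fold. Since Alox15 and Pla2g10 were chosen for this contrast, nothing is read from the counts. In stromal cells none of the 9 genes reached 100 UMIs, against a background of 0.992% higher and 3.85% lower among 3429 counted genes.

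The epithelium itself differed in make-up between the libraries, so the genes were followed in subsets cut by markers. Cells with at least 1 UMI of the luminal genes Lrp2 or Slc5a11 made up 61.1% of the f/f and 11.1% of the d/d epithelial class. Cells with a UMI of 10 cycling genes such as Mki67 and Top2a made up 26.4% and 64.8%, and cells with a gland marker such as Foxa2 or Cxcl15 10.9% and 3.31%. These shares are not thinned, and positive cells were deeper than negative ones, at 931 against 737 median UMIs for the Lrp2 split in f/f.

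Pla2g4a and Ptgs1 were higher in cells with Lrp2 or Slc5a11 than in those without them in the control. In f/f, Pla2g4a was 549 CPM (513 to 587) in positive and 313 CPM (274 to 355) in negative cells. Ptgs1 was 321 CPM (294 to 351) in positive and 179 CPM (150 to 211) in negative cells of that library. In negative cells the 2 libraries were close: Pla2g4a was 283 CPM in d/d, a log2 ratio of -0.14 (-0.42 to 0.14), and Ptgs1 172 CPM, a ratio of -0.06 (-0.43 to 0.31). When the split was made at 2 marker UMIs, or after thinning each cell to 500 UMIs, these ratios were -0.33 and -0.39 for Pla2g4a and -0.35 and -0.36 for Ptgs1, and all 4 intervals lay below 0. In positive cells Ptgs1 had 497 UMIs in f/f and 9 in the 97 d/d cells, 98.7 CPM (45.1 to 187), a ratio of -1.70 (-2.84 to -0.77). Pla2g4a in positive cells had a ratio of -0.65 (-1.20 to -0.14). The gland split also separated these 2 genes in f/f. Pla2g4a was 220 CPM (168 to 283) with a gland marker and 505 CPM (474 to 537) without, and Ptgs1 80.5 CPM (50.5 to 122) and 300 CPM (277 to 325). In f/f cells with a UMI of Muc4 or Ptpn22, Pla2g4a was 521 CPM (455 to 593), beside 459 CPM (429 to 491) in the rest. The subsets were cut separately and can share cells. The level in Muc4 or Ptpn22 cells without Lrp2 or Slc5a11 was not computed.

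Ptgs2 had another pattern within the epithelium. In f/f it was 103 CPM (75.0 to 138) in cells with a UMI of Muc4 or Ptpn22 and 59.9 CPM (49.3 to 72.1) in the rest. In d/d the 185 Muc4 or Ptpn22 cells had 93.4 CPM (54.4 to 150), a log2 ratio of -0.14 (-1.04 to 0.70), while the rest had 25.4 CPM (14.2 to 41.9), a ratio of -1.24 (-2.12 to -0.45). Cells with a UMI of Ltf or Clca3b, genes of the estrogen-stimulated epithelium, also had more Ptgs2 in f/f, 106 CPM (77.8 to 141) against 59.0 CPM (48.5 to 71.1). Ptgs2 had 7 f/f and 0 d/d UMIs in gland-marker cells and 2 d/d UMIs in Lrp2 or Slc5a11 cells, too few to compare.

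Pla2g10 did not follow the Lrp2 split. In f/f it was 45.9 CPM (35.9 to 57.9) in positive and 48.6 CPM (34.2 to 67.0) in negative cells, and 47.6 and 46.7 CPM with and without a gland marker. The 778 d/d cells without Lrp2 or Slc5a11 had 0 UMIs where 33.1 would be counted at the f/f level of the same subset, a log2 bound of -3.46. In cycling cells 19.3 UMIs would be counted at the f/f level and in non-cycling cells 11.7, and both held 0. The 97 d/d cells with Lrp2 or Slc5a11 say little, since 4.19 UMIs would be counted there.

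Alox15 was higher in d/d in most epithelial subsets. In cycling cells it was 165 CPM (138 to 196) in f/f and 487 CPM (430 to 548) in d/d, a log2 ratio of 1.56 (1.25 to 1.88), and in non-cycling cells 245 and 496 CPM, a ratio of 1.02 (0.70 to 1.33). Cells without Lrp2 or Slc5a11 had a ratio of 1.30 (1.03 to 1.58). Cells with them stood at 223 and 296 CPM, with an interval that included 0 (0.41, -0.21 to 0.98). In cells with a Muc4 or Ptpn22 UMI and in those with an Ltf or Clca3b UMI the ratios were 1.11 (0.71 to 1.52) and 1.29 (0.84 to 1.73).

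**Figure D2:**
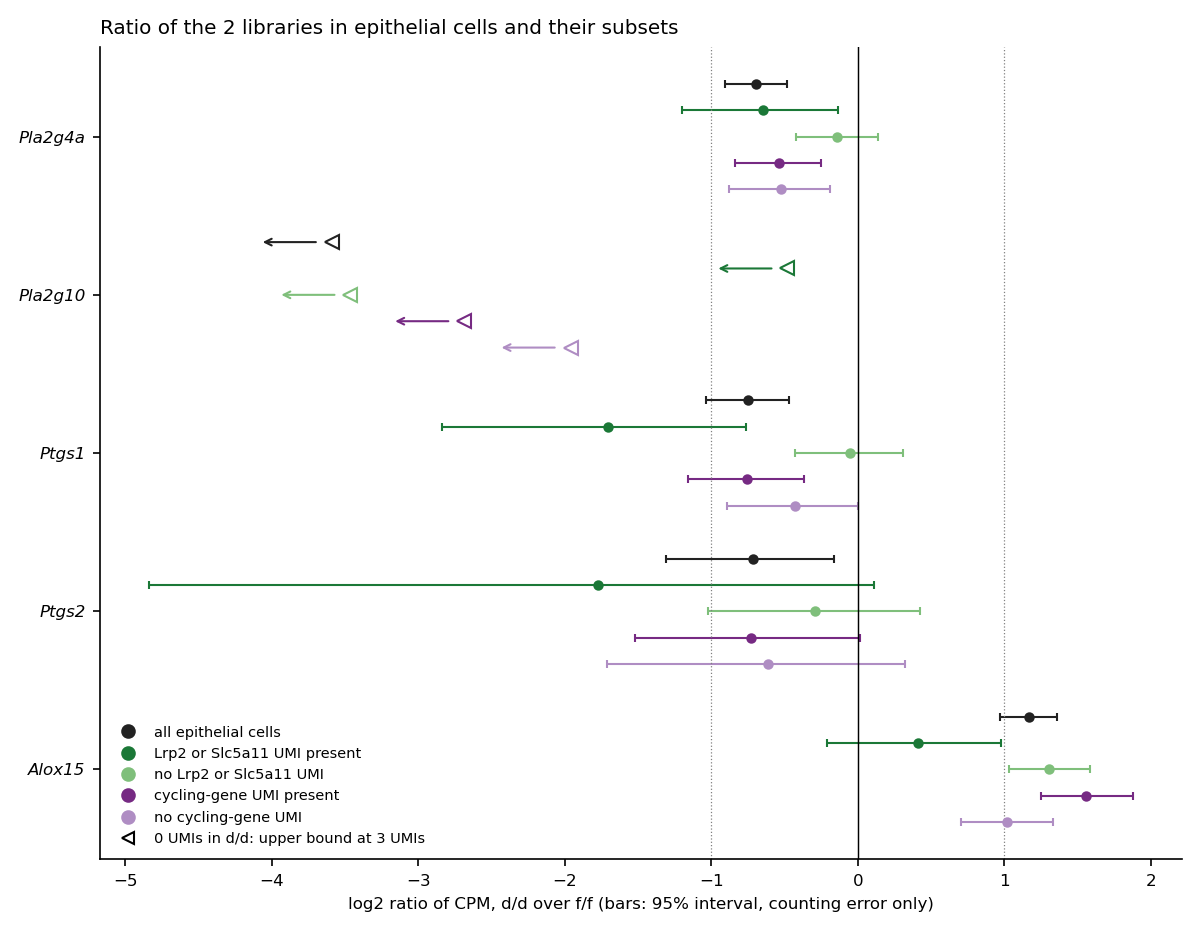
Log2 ratio of CPM, d/d over f/f (horizontal axis), for 5 genes (vertical axis) in all epithelial cells and in subsets with or without a UMI of Lrp2 or Slc5a11, or of cycling genes; bars are exact 95% intervals of counting error and open triangles are upper bounds where d/d held 0 UMIs. Pla2g4a and Ptgs1 lie near 0 in cells without Lrp2 or Slc5a11, Pla2g10 bounds lie from -3.59 to -0.48, and Alox15 lies above 0 in all 5 groups with an interval that includes 0 in Lrp2 or Slc5a11 cells.

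Leiden clusters, made from the most variable genes, gave a second view of the same cells and are named here by their leading genes. The Slc5a11 and Slc51a cluster held 1392 f/f and 25 d/d cells, the Pif1 and Troap cluster, led by genes of dividing cells, 506 and 652, and the Clca3b and Clca3a2 cluster 217 and 261. Pla2g10 in f/f was 54.9 CPM (42.7 to 69.4) in the Slc5a11 cluster, 66.2 CPM (47.9 to 89.1) in the Syn2 and Cxcl15 cluster and 24.5 CPM (14.3 to 39.3) in the Pif1 cluster. In d/d it was 0 in every cluster. The Pif1 cluster is the best filled in d/d, and 15.9 UMIs would be counted there at the f/f level, a log2 bound of -2.40. The Slc5a11 and Syn2 clusters had too few d/d cells, with 1.05 and 2.95 UMIs at the f/f level.

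Within the Pif1 cluster Pla2g4a was 359 CPM in f/f and 252 CPM in d/d, a log2 ratio of -0.51 (-0.81 to -0.22), and Ptgs1 was 237 and 133 CPM, a ratio of -0.83 (-1.23 to -0.45). In the Clca3b cluster Pla2g4a was 571 and 306 CPM (-0.90, -1.38 to -0.43), whereas Ptgs1 was 220 and 214 CPM (-0.04, -0.69 to 0.61). Ptgs1 went the other way in the Syn2 and Cxcl15 cluster, at 67.7 CPM in f/f and 202 CPM in d/d from 44 and 9 UMIs (1.57, 0.35 to 2.63). In cells with a gland marker it was 80.5 and 209 CPM (1.38, -0.21 to 2.72). Ptgs2 was highest in the Clca3b cluster, with 168 CPM from 32 UMIs in f/f and 76.6 CPM from 15 in d/d (-1.13, -2.12 to -0.20). Alox15 in the Pif1 cluster was 160 and 469 CPM (1.55, 1.23 to 1.88). In the Clca3b cluster, where f/f Alox15 was highest, it was 451 and 602 CPM (0.42, 0.01 to 0.84). In the Syn2 and Cxcl15 cluster Alox15 was 122 and 179 CPM from 79 and 8 UMIs, with an interval that included 0 (0.56, -0.70 to 1.61). A small cluster led by Cbs and Fgf1, with 14 f/f and 62 d/d cells, had the lowest d/d Alox15 level of the epithelial clusters, 72.2 CPM from 4 UMIs. The Snhg11 and Col16a1 cluster (460 cells of f/f, 132 of d/d) had its best marker score for the epithelium (0.485). Its stromal score was 0.307 and matrix genes were among its leading genes, so it is given no cell type here. Alox15 was 107 and 376 CPM in this cluster (1.81, 1.22 to 2.39). Where Leiden clusters replaced the marker gate, its cells counted as epithelial, except in the alternative that required a 2-fold marker lead.

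**Figure D3:**
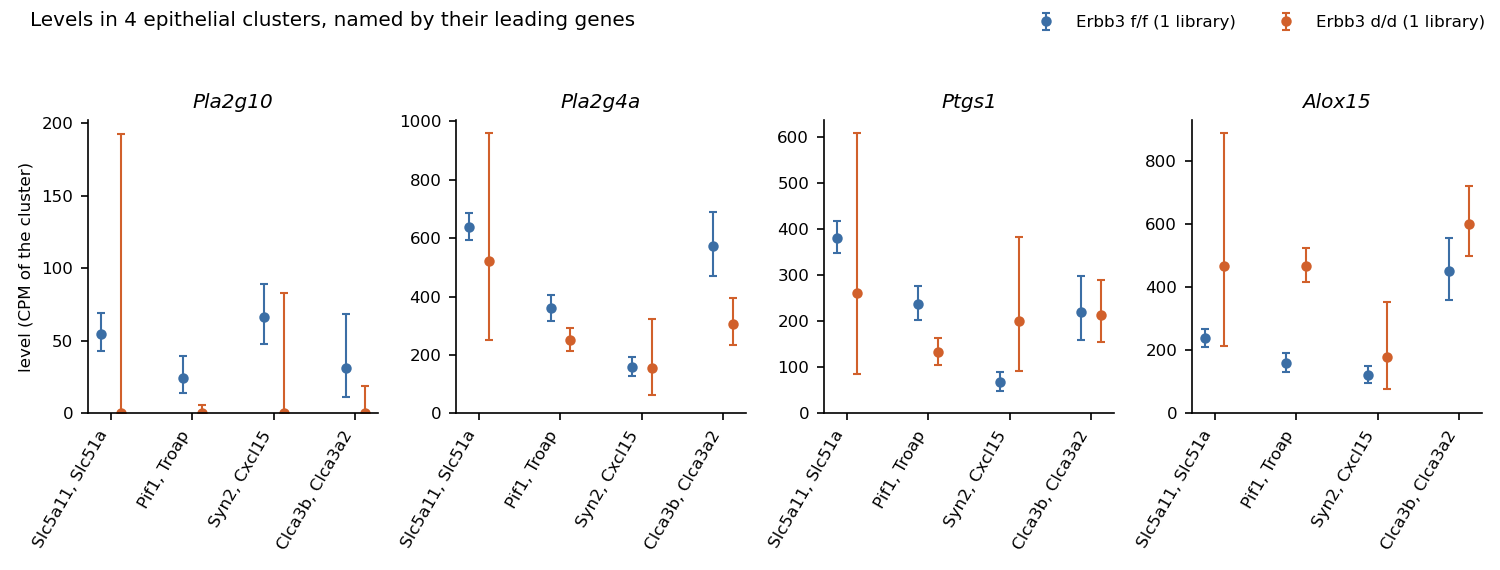
Level (vertical axes, CPM of the cluster, a different scale in each panel) of Pla2g10, Pla2g4a, Ptgs1 and Alox15 in 4 epithelial clusters named by their leading genes (horizontal axis), with 1 library per genotype; bars are exact 95% Poisson intervals of counting error. Pla2g10 is 0 in each d/d cluster, with wide intervals where d/d cells are few, and d/d Alox15 stands above f/f in each cluster, with intervals that do not overlap in the Pif1 cluster.

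The other genes of the pathway were taken from 7 lists, of which 103 genes were in the panel and 39, with 5 of the 9, were counted in the epithelium. Of these 39 genes, 13 had a ratio above 0 and 26 below it, and 3 and 5 were past 2-fold, 2 of them Alox15 and Pla2g10, beside 5.44% higher and 4.4% lower of all counted genes. Their median log2 ratio was -0.37, beside -0.02 for all counted genes. Of the phospholipase list, 3 genes of 9 were above and 6 below 0, with a median of -0.37. This list also held Pnpla2, Mgll and Faah, lipid hydrolases that are not classed as phospholipases A2. The genes above 0 were Faah, Pla2g12a and Mgll, with log2 ratios of 0.61, 0.53 and 0.43. Of the cyclooxygenases and prostanoid synthases, 2 of 5 were above and 3 below, with a median of -0.72, which turned to 0.11 when genes with at least 20 UMIs were counted. Of the genes that esterify or elongate arachidonic acid and its precursors, 3 of 9 were above and 6 below, with a median of -0.56.

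The genes past 2-fold covered several steps. Lower in d/d were Fads2, the delta-6 fatty acid desaturase on the route to arachidonic acid (278 and 19 UMIs, -2.29, -3.05 to -1.62), and Gstm2, a glutathione transferase that can form prostaglandin E2 (4282 and 454 UMIs, -1.66, -1.80 to -1.52). Plpp3, which removes phosphate from lysophosphatidic acid, was at 202 CPM in f/f and 71.2 CPM in d/d (-1.50, -1.93 to -1.10). The phospholipase Plaat3 was at 62.4 and 28.5 CPM (-1.13, -1.85 to -0.48). Higher in d/d were Ephx1, the microsomal epoxide hydrolase, with 30.8 and 118 CPM (1.94, 1.47 to 2.41), and Mboat1, a lysophospholipid acyltransferase, with 65.0 and 195 CPM (1.59, 1.25 to 1.92).

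Prostanoid receptors were thinly counted. Ptger4, a prostaglandin E2 receptor, was the only counted gene of their list, at 87.5 CPM in f/f and 47.9 CPM in d/d (-0.87, -1.42 to -0.36). Of the receptors for lysophosphatidic acid, Lpar3 was at 71.9 and 53.1 CPM (-0.44, -0.97 to 0.06) and Lpar6 at 88.4 and 60.8 CPM (-0.54, -1.03 to -0.08), both named after their values were seen. Of the lipoxygenases beside Alox15, Alox12e stood at 322 and 308 CPM (-0.06, -0.28 to 0.15). Alox12, chosen after its values were seen, had 88 UMIs in f/f against 8 in d/d (-1.88, -3.14 to -0.84) and was under the minimum of 100. In stromal cells 8 listed genes were counted, 1 above and 7 below 0, with a median of -0.43 beside -0.10 for all counted genes. Past 2-fold there were Gstm2 (180 and 11 UMIs, -1.59, -2.62 to -0.72) and Lta4h, the leukotriene A4 hydrolase (96 and 8 UMIs, -1.15, -2.40 to -0.11). Gstm2 was thus lower in the 2 classes, with a stromal level of 187 CPM beside 1856 CPM in the f/f epithelium. The part of free epithelial RNA in the stromal value was not tested.

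**Figure D4:**
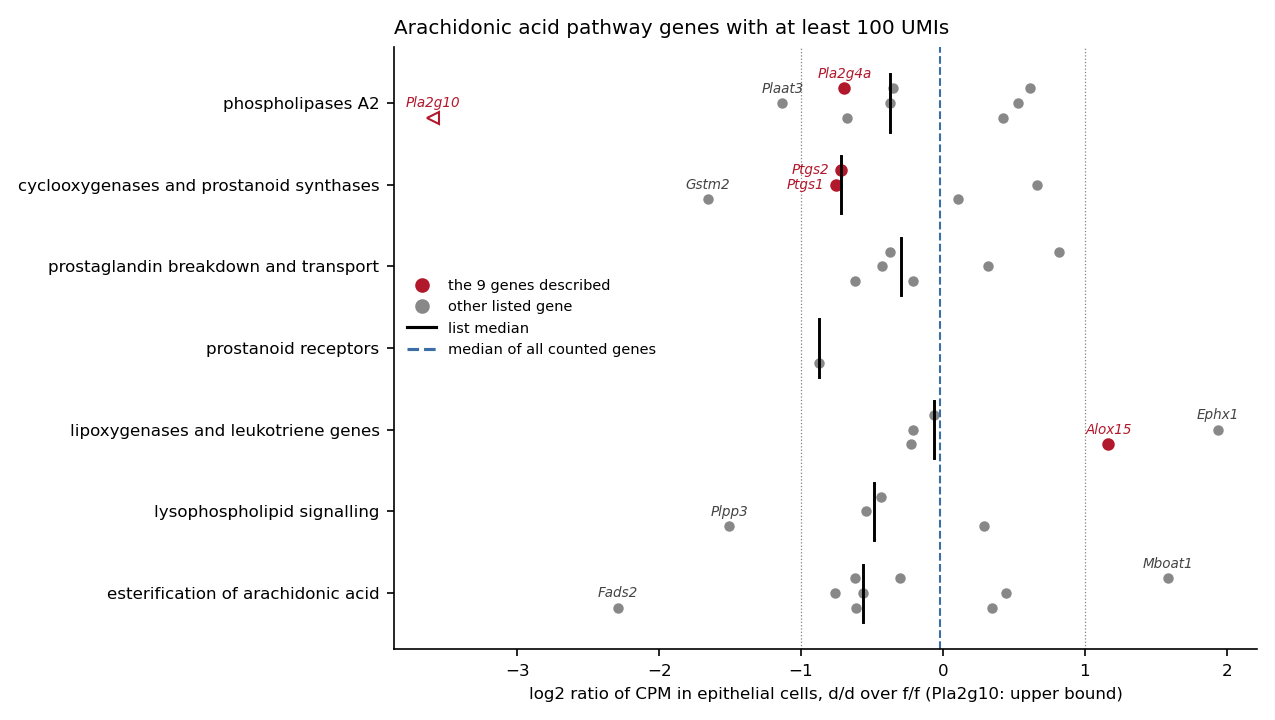
Log2 ratio of CPM in epithelial cells, d/d over f/f (horizontal axis), of the 39 pathway genes with at least 100 UMIs, by list (vertical axis); each point is a gene, black bars are list medians, the dashed line is the median of all counted genes at -0.02, and dotted lines mark 2-fold. Pla2g10 is an upper bound at -3.59, and Alox15, Ephx1 and Mboat1 are the genes past 2-fold on the higher side.

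For the 7 of 9 genes with at least 100 UMIs in gated cells, the genes with the most similar profile were looked up over 12 points, the 6 classes of 2 libraries, among 8828 genes. The measure was Pearson's r of log2(CPM + 1), given without a test because the points share libraries and depth. Alox15 was most like Tspan8 (0.95), Lbp (0.93) and Uhrf2 (0.92), and Pla2g4a was most like Ccng2 (0.97), Bhlhe40 (0.97) and Vill (0.96). Ptgs1 was most like Nfkbiz (0.92), Manba (0.92) and Map3k5 (0.90), and Ptgs2 most like Esrp2 (0.94), Wipf3 (0.93) and Car12 (0.90). For Pla2g10 the values were lower, with Wdr20 (0.83), Chmp3 (0.82) and Mtmr6 (0.82). Pla2g10 had 0 UMIs in every d/d class, part of why it was chosen, and in f/f stromal and endothelial cells. Its f/f mesothelial, myeloid and smooth muscle or pericyte points rest on 4, 2 and 1 UMIs. Hpgds was most like Gga3 (0.91), and Ccbe1 (0.88) and Arrdc4 (0.87) were among the genes most like Hpgd. Between the 2 phospholipases r was 0.37 and between the 2 cyclooxygenases 0.39. Alox15 gave -0.03 with Pla2g4a and 0.45 with Ptgs1. Among the 7 genes the highest r was 0.59, of Pla2g4a with Ptgs2, and the lowest -0.52, of Ptgs2 with Hpgds.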

How the data were processed

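The deposited values were UMI counts, whole numbers in 1 matrix per library that, per the file headers, Cell Ranger 9.0.0 had produced; they were not normalized. The submitters' processing notes name the builds mm10 and GRCm39 without a role. Gene positions come from GENCODE on GRCm38 and promoter windows from RefSeq on GRCm38.p6.

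The 9 genes, the pathway lists and the markers were chosen with earlier results of these data known, and the way marker counts were scored was settled after the cells were seen. UMIs of 78 markers in 7 groups were fitted by a Poisson mixture, and a cell joined a class at a posterior of at least 0.9. The component begun from lymphoid markers collected deep mixed cells (365 and 118) and was given no class. Scrublet in scanpy 1.11.5 called 1 and 5 barcodes as doublets, too few for a working caller, so none was removed. UMIs were summed per class and library and scaled to CPM of that sum. Sums have exact Poisson, shares Clopper-Pearson and ratios conditional binomial intervals at 95%, for counting error only, and a count of 0 was taken as at most 3. With fewer than 10 UMIs an interval spans several-fold. No model was fitted across genes. edgeR 4.0.16 gave the TMM factors of 1 alternative. Clusters were made with leidenalg 0.10.2 from 2000 variable genes, 30 components and 15 neighbours at resolution 1. The gate and the intervals were tested on simulated data. A gene's ratio was counted from 100 UMIs upward, summed over f/f and d/d. Genes were named by rule: the 9 genes, listed pathway genes past 2-fold with at least 100 UMIs, and the 3 genes most similar to each of the 9 that had enough UMIs, some of which are not reported here. There were 15 alternatives, 3 of them added after seeing the data.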

Additional observations from a re-analysis of the deposited data

Results flagged for a closer look

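Pla2g4a was higher in d/d in endothelial cells, with a log2 ratio of 1.68 from 9 UMIs in each library, and lower in epithelial cells (-0.69); the difference between the 2 classes was not tested. Hpgd was likewise higher in d/d endothelial cells, with a log2 ratio of 4.00 (0.84 to 9.56) from 1 and 5 UMIs, and lower in epithelial cells (-1.33); this difference was not tested either. The endothelial Leiden cluster showed neither: Pla2g4a was 131 and 152 CPM there (0.22, -1.02 to 1.30), and Hpgd 14.6 and 16.9 CPM from 4 and 1 UMIs.

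Barcodes that failed the filters, 280 of f/f and 295 of d/d, were outside the cell classes and entered only the values over all deposited barcodes. Among them 3 of the 9 genes were higher in d/d with an interval above 0. The share of all genes that were higher in these barcodes was not computed, so nothing is read from this count. The log2 ratio was 1.15 (0.90 to 1.42) for Alox15, from 188 and 371 UMIs. It was 0.98 (0.15 to 1.85) for Hpgds, from 20 and 35 UMIs. For Hpgd it was 0.76 (0.0060 to 1.53), from 26 and 39 UMIs, an interval that barely cleared 0. Others were lower there, with -0.69 for Pla2g4a, -1.03 for Ptgs1 and -4.15 for Pla2g10.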

How the results depend on the processing

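Over 11 alternatives of filter, doublets, gate and scaling, the epithelial log2 ratio ranged from 1.12 to 1.25 for Alox15, from -1.03 to -0.68 for Ptgs1 and from -0.83 to -0.54 for Ptgs2, whose interval lay below 0 in 10 of 11. With all deposited barcodes it was -0.92 for Pla2g4a, -5.10 for Pla2g10 and -0.56 for the pathway median, and 3.32% of epithelial genes were higher past 2-fold. The pathway median in epithelial cells was -0.17 under the stricter count gate and -0.27 under the count gate of 2 UMIs and 2-fold lead, an alternative added after seeing the data. A minimum of 20 UMIs gave 7.58% lower in epithelial cells, 4.70% higher and 8.75% lower in stromal cells, a median of 0.11 for cyclooxygenases and prostanoid synthases and a stromal pathway median of 0.027, which turned its direction; more thinly counted genes enter there. The lipoxygenase list's epithelial median was 0.57 under the stricter gate. Epithelial Hpgd was 0.15 under the looser gate and 0.0064 under the added gate. In stromal cells these gates gave 1.51% and 1.67% higher, and the looser gate 2.45% lower. The stromal pathway median of 8 genes was -0.68 with all barcodes, -0.13 with at least 500 genes, -0.29 without high doublet scores, -0.29 under the stricter gate, -0.021 under the looser gate, -0.29 with Leiden clusters, -0.29 with Leiden clusters whose best marker score was at least 2 times the next, added after seeing the data, -0.028 under the added gate and -0.56 without barcodes sharing their first 16 bases, also added after seeing the data. In Lrp2 or Slc5a11 cells cut at 2 UMIs, Alox15 had a ratio of -0.46 (-2.10 to 0.78). Of all recomputed log2 ratios, 790 stayed within the counting interval of the reported value. Where that interval excluded 0, 2 of 537 changed sign, both for epithelial Hpgd, and where it included 0, 42 of 279 did. The cause of these shifts was not tested. No paired analysis was possible because there was 1 library per genotype. The depth of d/d classes other than the epithelium limits what could be seen there.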
